A study of Mus musculus with 18 samples.

Results

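The comparison is between 3 libraries of macrophages given interferon-gamma (IFNg) with lipopolysaccharide (LPS) and 3 given IFNg with interleukin-1 beta (IL1b), 6 of the 18 libraries of the series, chosen by the treatment in their labels. All are primary mouse bone-marrow-derived macrophages (BMDMs), labelled wild type and treated for 18 h. The 3 libraries with IFNg alone serve as the common baseline for the size of each response. No dose of IFNg, LPS or IL1b is given in the labels used here, so the size of a response and the dose that gave it cannot be told apart. Nothing in the labels states that the 3 libraries of a treatment are different mice or cultures, so p-values measure the spread between libraries only, and that spread may be technical.

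LPS, a component of the outer membrane of Gram-negative bacteria, is bound by Cd14 and by the complex of Tlr4 with MD-2 (Ly96). IL1b is bound by Il1r1 with its accessory chain Il1rap. Both receptors carry a cytoplasmic TIR domain that recruits the adaptor Myd88, from which Irak and Traf6 proteins lead to NF-kappaB and MAP kinases, and Tlr4 alone also uses the adaptor TRIF (Ticam1), which leads through Tbk1 to type I interferon. IFNg primes macrophages for the inflammatory and microbicidal state in which nitric oxide synthase, chemokines and antigen presentation genes are made. The question put to these data is how far the expression states reached with the 2 ligands differ on that common IFNg background.

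Total counts were 14507644 to 18470650 in the LPS libraries and 12270565 to 16589625 in the IL1b libraries. Levels are given as CPM, the read count of a gene scaled to the size of its library, and each log2 difference, its standard error (SE) and its adjusted p come from edgeR's quasi-likelihood test with Benjamini-Hochberg adjustment over 11563 tested genes. A gene is called where that adjusted p is under 0.05, and a difference without another baseline named is LPS minus IL1b. In a principal component analysis of the 9 libraries, the first component (50.6% of variance) placed the LPS libraries at 40.6 to 45, the IL1b libraries at -18.8 to -11.8 and the IFNg libraries at -29.5 to -25.6. The third LPS library stood apart from the other LPS libraries on the second component (13.7% of variance), at -36.9 against 16.1 and 23.9. Relative to the mean of the other LPS libraries, the median log2 difference of its genes was 0.24 in the fifth with the lowest GC content and -0.28 in the fifth with the highest. The main counts below are therefore also given without it. On the same measure LPS library 1 ran the other way, from -0.14 at the lowest GC content to 0.24 at the highest. With all libraries the median LPS minus IL1b difference ran from 0.02 at the lowest GC content to -0.03 at the highest. Without LPS library 3 it ran from -0.05 to 0.07, so leaving that library out does not correct for GC content. Of 12 macrophage identity genes, all were tested, and their summed level was 15200 to 16500 CPM with IL1b and 15490 to 16750 CPM with LPS. Of the 12, 2 were called higher with LPS, Cd14 among them (log2 difference 2.11), and 0 lower. All 7 NK cell genes were at 0 counts in the 9 libraries, as were 4 of 8 T cell genes and the B cell genes Ms4a1 and Pax5.

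**Figure D1:**
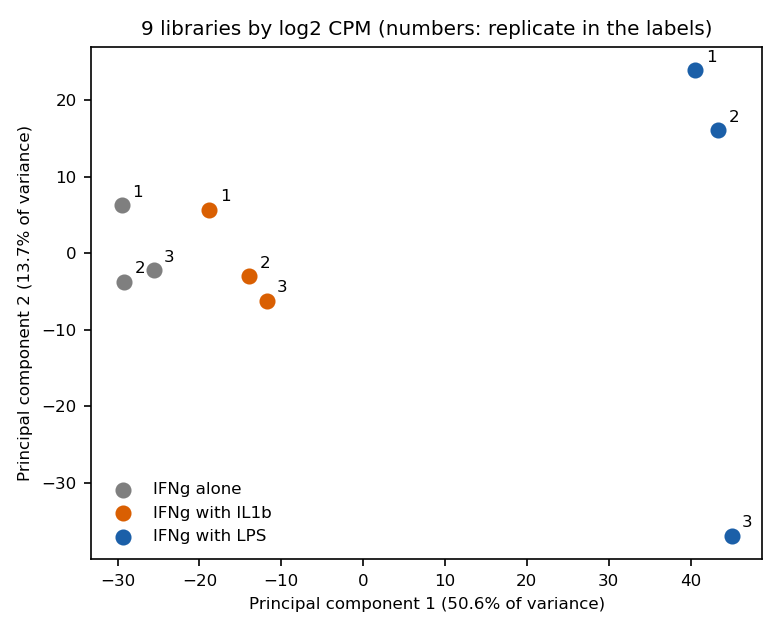
Principal component analysis of log2 CPM in the 9 libraries with IFNg alone, IFNg with IL1b and IFNg with LPS; each point is a library with its replicate number, and the axes are the first (50.6%) and second (13.7%) components. The LPS libraries lie at 40.6 to 45 on the first component, and the third LPS library lies at -36.9 on the second.

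The states reached with LPS and with IL1b differed in 1628 of 11563 tested genes (14.1%). Of these, 824 (7.13% of those tested) were higher with LPS and 804 (6.95%) were lower. Among the called genes 680 differed at least 2-fold, 317 higher and 363 lower with LPS, and the median size of a called difference was 0.86 on the log2 scale. Without the third LPS library 821 genes were called higher and 778 lower, and 1333 of the genes called with all libraries were called again. Scaling by the library totals implied by the deposited RPKM values shifted the median of all genes by -0.08 and gave 659 higher and 1039 lower, a share of higher calls of 38.8% in place of 50.6%.

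**Figure D2:**
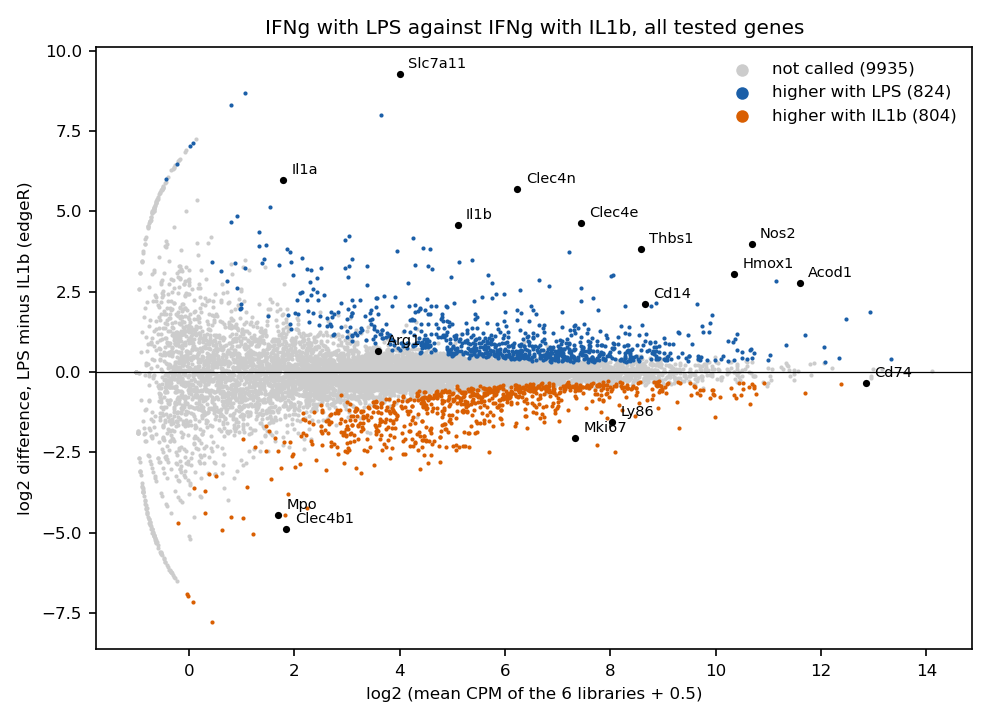
Log2 difference between LPS and IL1b (y axis, edgeR) against the log2 mean CPM of the 6 libraries plus 0.5 (x axis) for the 11563 tested genes; blue points were called higher with LPS (824), orange points higher with IL1b (804), grey points were not called, and black points are labelled genes. Il1b, Clec4n, Clec4e, Nos2, Hmox1 and Acod1 lie high on the LPS side and Mki67, Ly86 and Clec4b1 on the IL1b side.

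Measured against IFNg alone, the 2 additions differed in the number of genes called. With LPS 2348 genes were called (20.3%), 1184 higher (10.2%) and 1164 lower (10.1%), and the median absolute log2 difference over all tested genes was 0.363. With IL1b 35 genes were called (0.303%), 31 higher (0.268%) and 4 lower (0.0346%), and the median absolute log2 difference was 0.167. At an unadjusted p under 0.05, IL1b against IFNg held 595 genes and LPS against IFNg 3566. With no true difference a share of about 0.05 of the 11563 tested genes would pass that cut. The count with IL1b is close to that share and is no evidence of further responses. DESeq2 called 84 genes in that comparison and a fit of only its 6 libraries called 68, while leaving out IFNg library 1 or IL1b library 3 left 15 in each case, leaving out IFNg library 2 left 21 and leaving out IL1b library 2 left 23. These comparisons share the IFNg libraries, so their values are set side by side below, and the test of the difference between them is the direct contrast of LPS with IL1b, in which the IFNg libraries cancel.

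The windows printed here show where a known motif occurs in promoters of 4 gene groups that are described further on: NF-kappaB targets, type I interferon genes, genes of the oxidative stress response and cell cycle genes. For each group they are the called members with the largest difference, among those with a promoter entry, whose last 150 bases before the start hold the group's known motif. The capitals mark that motif. Hmox1 and Ccna2, among others, had no promoter entry, so their motifs were not examined. Sequences are RefSeq promoters of GRCm38.p6, which has the coordinates of mm10, and 9180 of the 11563 tested genes (79.4%) matched by symbol. The kappaB consensus marks Sod2 (chr17:13007689-13007838, plus strand) and Ier3 (chr17:35821563-35821712, plus strand).
Sod2: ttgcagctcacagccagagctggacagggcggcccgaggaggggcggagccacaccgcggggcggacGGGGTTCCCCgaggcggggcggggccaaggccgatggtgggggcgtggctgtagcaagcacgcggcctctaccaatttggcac
Ier3: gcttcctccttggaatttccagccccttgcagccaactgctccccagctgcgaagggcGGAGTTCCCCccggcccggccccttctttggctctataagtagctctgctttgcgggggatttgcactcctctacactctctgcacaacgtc
The interferon-stimulated response element (ISRE), searched as the letters of GAAA, any pair of bases and GAAA, marks Rsad2 (chr12:26456453-26456602, minus strand) and Ifi205 (chr1:174031756-174031905, minus strand).
Rsad2: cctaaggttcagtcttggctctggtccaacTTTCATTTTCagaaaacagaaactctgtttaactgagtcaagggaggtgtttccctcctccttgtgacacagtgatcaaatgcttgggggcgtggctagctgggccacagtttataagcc
Ifi205: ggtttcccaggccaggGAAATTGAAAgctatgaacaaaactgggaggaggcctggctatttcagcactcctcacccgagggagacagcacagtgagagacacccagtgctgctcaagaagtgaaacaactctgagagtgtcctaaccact
The antioxidant response element (ARE), searched as TGACNNNGC, marks Prdx1 (chr4:116685449-116685598, plus strand) and Gclm (chr3:122245407-122245556, plus strand).
Prdx1: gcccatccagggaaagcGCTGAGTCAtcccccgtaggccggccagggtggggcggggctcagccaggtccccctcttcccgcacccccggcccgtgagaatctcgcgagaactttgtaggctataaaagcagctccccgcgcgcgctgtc
Gclm: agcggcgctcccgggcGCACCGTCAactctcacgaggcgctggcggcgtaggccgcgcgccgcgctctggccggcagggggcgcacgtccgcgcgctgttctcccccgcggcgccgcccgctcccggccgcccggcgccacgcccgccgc
The cell cycle homology region (CHR), searched as TTTGAA, marks Ube2c (chr2:164769779-164769928, plus strand) and Kif11 (chr19:37376232-37376381, plus strand).
Ube2c: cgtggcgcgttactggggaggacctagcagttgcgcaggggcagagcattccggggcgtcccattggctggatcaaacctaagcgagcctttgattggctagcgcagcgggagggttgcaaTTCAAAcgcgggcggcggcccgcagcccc
Kif11: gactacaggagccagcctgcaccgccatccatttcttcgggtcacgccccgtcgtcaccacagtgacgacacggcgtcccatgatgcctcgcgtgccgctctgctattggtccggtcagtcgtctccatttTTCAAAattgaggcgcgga
Each motif was searched on both strands of the 250 bases before the start and overlap with another motif was allowed. A kappaB match was held by 11 of 23 NF-kappaB list promoters (47.8%) against 7% of all 27025 promoters and 8.7% of those of tested genes, and was also held by 8 of 18 promoters of the MHC class I list (44.4%). An ARE match was held by 6 of 23 promoters of the oxidative stress list (26.1%), against 10.1% of all and 12% of those of tested genes. Shares of ARE matches close to that stood in the unfolded protein (22.2%), NF-kappaB (21.7%) and negative feedback (21.1%) lists, and the share was 14.8% in genes called higher and 15.3% in genes called lower with LPS. An ISRE match was held by 3% and a CHR match by 16.3% of all promoters. For the type I interferon and cell cycle lists fewer than 80% of members had a promoter (31 of 42 and 27 of 34), so a share over those lists is not given. The tested genes as a whole (79.4%) and the genes called lower with LPS (642 of 804) also fall under 80%. The shares given for these sets are therefore incomplete and serve only as a rough background. A match is a run of letters and not a measured site of binding.

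Each list count from here on stands beside shares over all tested genes of 7.13% higher and 6.95% lower with LPS. Among 11 tested receptor genes for LPS and IL1, Cd14 and Il1rn were higher with LPS and Ly86 and Il1rap were lower, with a median log2 difference of -0.24. That median turned to 0.06 without the third LPS library and ran from -0.33 to 0.06 with single libraries left out, so it gives no stable direction. The members lower were 1 in place of 2 without IL1b library 1 or 3 or LPS library 1 or 2. The shared adaptor was not called. The mRNA of Il1r1, the signalling receptor of IL1, was at 0 counts in every IFNg library, at 4, 0 and 0 counts with IL1b and at 14, 28 and 35 counts with LPS. The gene was therefore near the floor in the cells given IL1b, and its difference was not called (adjusted p = 0.123 by edgeR), though it was by DESeq2 and in a fit of the 2 groups alone. The accessory chain Il1rap was at 7.94, 5.62 and 8.55 CPM with IL1b and at 3.25, 2.91 and 3.14 CPM with LPS, without overlap (log2 difference -1.25, SE 0.413, adjusted p = 0.042). That call was lost when any library other than IL1b library 2 was left out, with log2 differences of -1.41 to -1.13 and adjusted p of up to 0.136. Il1rn, the secreted antagonist that occupies Il1r1, was at 17, 26.4 and 28.9 CPM with IL1b and at 129, 177 and 218 CPM with LPS (log2 difference 2.87, SE 0.252, adjusted p = 1.62e-07).

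On the LPS side, Cd14 was at 145, 160 and 149 CPM with IL1b and at 766, 638 and 556 CPM with LPS (log2 difference 2.11, SE 0.133, adjusted p = 8.56e-12). Its levels with IL1b lay close to those with IFNg alone, 142 to 151 CPM. Ly86, which encodes MD-1, the partner of the Tlr4-like receptor Cd180, was at 411, 398 and 362 CPM with IL1b and at 133, 135 and 128 CPM with LPS (log2 difference -1.57, SE 0.122, adjusted p = 5.15e-10). Tlr4 was not called (log2 difference -0.24, SE 0.151, adjusted p = 0.364), nor was its partner Ly96 (0.08, SE 0.253, adjusted p = 0.915). In the deposited RPKM values, which are scaled to gene width, Tlr4 stood at 73.8 ± 7.3 with IL1b and 59 ± 13 with LPS, and Il1r1 at 0.0242 ± 0.0419 and 0.493 ± 0.259 (SD, n = 3).

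Of 18 tested members of the shared Myd88 arm, 1 was called higher with LPS and 0 lower, beside 7.13% and 6.95% of all tested genes. A count so near those shares is no result about the arm. The median log2 difference was 0.08 beside -0.004 over all tested genes. It was -0.01 under the RPKM-implied totals and 0.0 to 0.14 with single libraries left out. The member called was Irak2, a kinase of the receptor complex, at 83.7, 93.2 and 93.2 CPM with IL1b and 151, 164 and 130 CPM with LPS (log2 difference 0.72, SE 0.118, adjusted p = 7e-05). Leaving out IL1b library 3 or LPS library 3 gave 2 members in place of 1. Myd88 itself was at 137 to 165 CPM with IL1b and 126 to 146 CPM with LPS, and the groups overlapped (log2 difference -0.15, SE 0.105, adjusted p = 0.452). Of 11 members of the TRIF arm, 3 were called higher and 0 lower, with a median of 0.23 (0.12 without LPS library 3 and 0.37 without LPS library 2). They were Tank, a scaffold of Tbk1 (1.02, SE 0.129, adjusted p = 1.72e-06), the kinase Tbk1 itself (0.53, SE 0.133, adjusted p = 0.00671) and Irf7, a transcription factor of interferon genes (0.54, SE 0.138, adjusted p = 0.00715). Irf7 lost its call without IL1b library 3 (adjusted p = 0.051). Ticam1, the TRIF adaptor, was at 126 to 132 CPM with IL1b and 131 to 151 CPM with LPS and was not called (0.16, SE 0.11, adjusted p = 0.422).

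**Figure D3:**
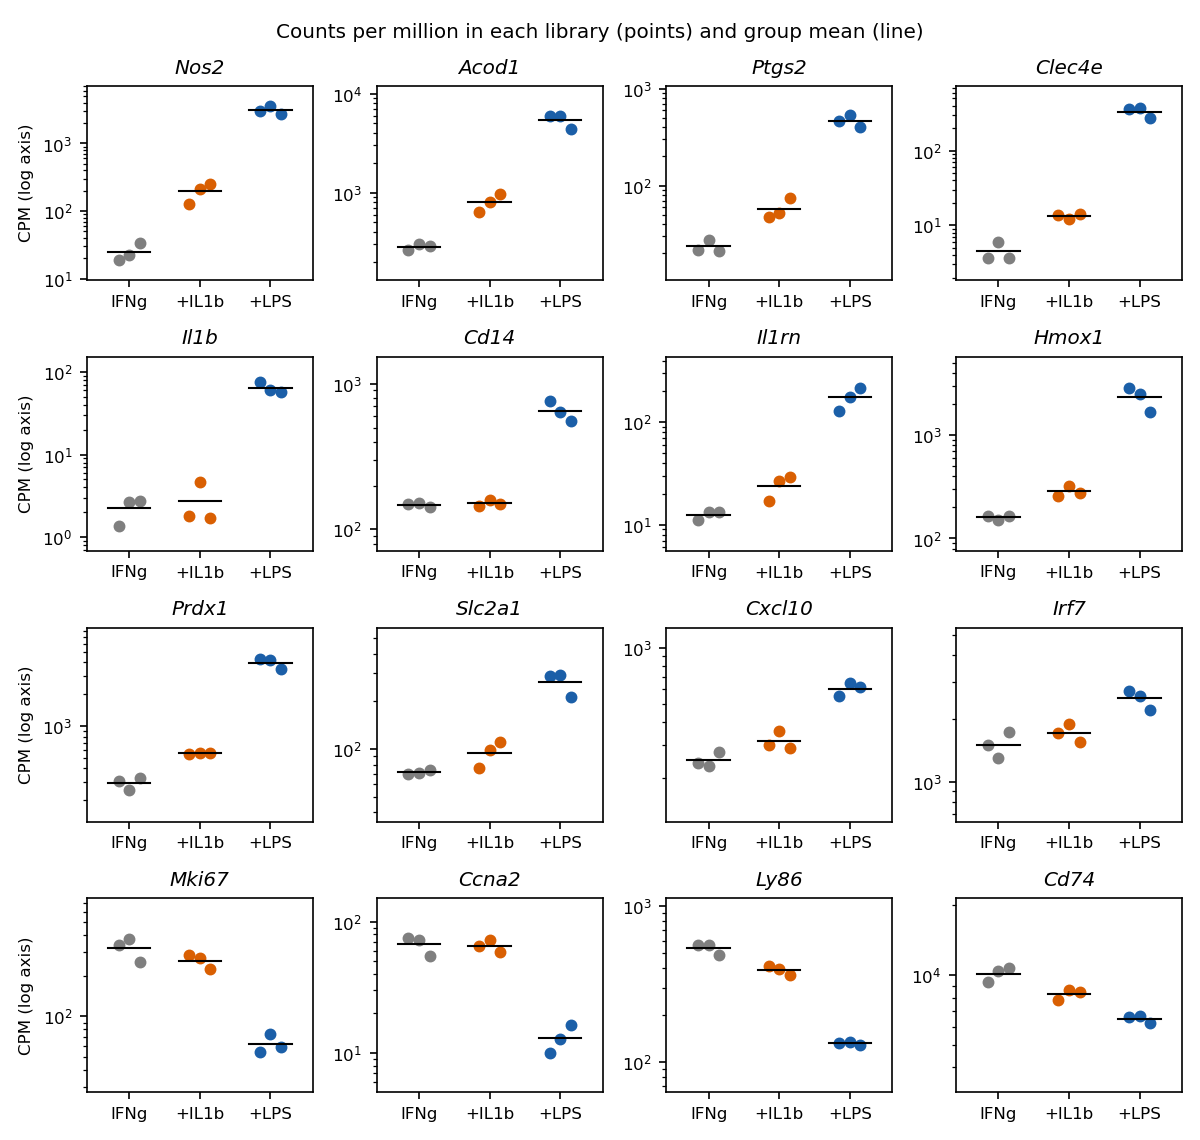
CPM on a log axis for 16 genes in each library (points) with the group mean (black line), for IFNg alone (grey), IFNg with IL1b (orange) and IFNg with LPS (blue). In the panels of Nos2, Acod1, Ptgs2, Clec4e, Hmox1 and Prdx1 the IL1b libraries lie between those with IFNg alone and those with LPS, while in the Cd14 panel they lie at the level of IFNg alone.

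Targets and feedback genes of NF-kappaB differed in the direction of LPS. Of 28 tested members, 15 were higher and 2 lower with LPS, with a median log2 difference of 0.59. Without the third LPS library the count was 16 and 2, and with single libraries left out 13 to 16 were higher. Sod2, the mitochondrial superoxide dismutase, was at 61.8, 64.6 and 79 CPM with IL1b and at 380, 367 and 273 CPM with LPS (log2 difference 2.31, SE 0.137, adjusted p = 2.16e-12). Its levels with IFNg alone were 37.1, 41.6 and 44.1 CPM, so that the 3 groups did not overlap. Ier3, an early response gene, was at 2.14, 3.58 and 3.96 CPM with IL1b and at 17.3, 16.2 and 6.55 CPM with LPS, where the third library was the lowest (2.07, SE 0.373, adjusted p = 0.000497). Nfkbie, an inhibitor that holds NF-kappaB in the cytoplasm, differed by 2.02 (SE 0.276, adjusted p = 2.36e-05) and Traf1, an adaptor of TNF receptors, by 1.92 (SE 0.274, adjusted p = 7.52e-05). The members lower with LPS were the subunit precursor Nfkb1 (-0.29, adjusted p = 0.0438) and Nfkbiz, a nuclear cofactor (-0.98, adjusted p = 0.000345), both named for being the whole of that small count. Each of 5 single libraries, LPS library 3 excepted, reduced the members lower from 2 to 1 when left out.

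Brakes on signalling were higher with LPS as well. Among 22 members of the negative feedback list 13 were higher and 0 lower, with a median log2 difference of 0.72. The count was 13 without the third LPS library, and 10 to 13 with single libraries left out. Besides Il1rn above, Cish, a suppressor of cytokine signalling, was at 1.1, 1.28 and 1.01 CPM with IL1b and at 8.92, 11.1 and 6.06 CPM with LPS (2.94, SE 0.414, adjusted p = 8.48e-06). Il10, the anti-inflammatory cytokine, was at 3.83, 5.43 and 5.52 CPM with IL1b and at 1.56, 0 and 2.51 CPM with LPS, and was not called (-1.87, SE 0.842, adjusted p = 0.162).

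Inflammatory cytokines were called in 6 of 19 tested members, 6 higher and 0 lower with LPS, with a median log2 difference of 0.96. The count was 8 without the third LPS library, and 5 to 8 with single libraries left out. The gene of IL1b itself was at 1.81, 4.66 and 1.71 CPM in cells given IL1b protein and at 77, 61.6 and 56.7 CPM with LPS (log2 difference 4.57, SE 0.41, adjusted p = 1.06e-06). With IFNg alone it was at 1.36, 2.65 and 2.73 CPM, so its level with IL1b overlapped that baseline. Il1a, the other IL1 receptor agonist, was at 0.164, 0.0639 and 0 CPM with IL1b and at 5.79, 6.7 and 4.95 CPM with LPS (adjusted p = 3.26e-05). Il12b, the p40 chain of IL12 and IL23, had 0 counts in the IFNg and IL1b libraries and 54, 45 and 27 counts with LPS, at least 39.5-fold higher with LPS against a floor of 3 counts over the IL1b group. Tnf was at 40.1, 37.2 and 40.8 CPM with IL1b and at 107, 97.5 and 72.6 CPM with LPS (1.23, SE 0.208, adjusted p = 0.000109).

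Il6 was at 13, 2 and 11 counts with IL1b, 48, 51 and 19 with LPS and 0 in every IFNg library, and the difference between the ligands was not called (adjusted p = 0.0605 by edgeR); it was called without the third LPS library (adjusted p = 0.0358), by DESeq2 and with no filter on low counts. Vegfa, an angiogenic growth factor, was at 14.6, 15.1 and 15.9 CPM with IL1b and at 64.1, 32 and 39.2 CPM with LPS (1.57, SE 0.214, adjusted p = 6.23e-06).

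Of 17 chemokine genes 7 were higher and 1 lower with LPS, with a median log2 difference of 0.93. Ccl5, which attracts T cells and monocytes, was at 162, 153 and 198 CPM with IL1b and at 946, 619 and 710 CPM with LPS (log2 difference 2.15, SE 0.142, adjusted p = 2.34e-11). The neutrophil attractant Cxcl2 was near the floor with IL1b, at 0.11, 0 and 0.155 CPM, and at 2.32, 2.36 and 2.44 CPM with LPS (adjusted p = 5e-05). The CXCR3 ligands differed less: Cxcl11 by 1.58 (adjusted p = 7.72e-06), Cxcl9 by 0.94 (adjusted p = 0.00114) and Cxcl10 by 0.93 (adjusted p = 0.00329). Ccl6, named as the member lower with LPS, differed by -1.18; leaving out LPS library 1 or 2 or IL1b library 3 reduced the members lower to 0, and leaving out LPS library 3 gave 6 higher and 2 lower.

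Interferon-stimulated genes differed in number and by modest sizes. Of 42 tested members of the type I interferon response, 14 were higher and 1 lower with LPS, with a median log2 difference of 0.25. Without the third LPS library these were 12 and 2, and with single libraries left out 10 to 14 were higher. Oasl1, an inhibitor of Irf7 translation, was at 145, 181 and 190 CPM with IL1b and at 689, 762 and 673 CPM with LPS (2.04, SE 0.157, adjusted p = 7.07e-10). Rsad2, the antiviral enzyme viperin, was at 161, 204 and 181 CPM with IL1b and at 371, 523 and 535 CPM with LPS (1.39, SE 0.152, adjusted p = 2.2e-07). Ifi205, a DNA-sensing family member, differed by 1.32 (SE 0.219, adjusted p = 0.000248), and the antiviral GTPase Mx1 by 1.02 (SE 0.197, adjusted p = 0.000754). The one lower member was Siglec1, a sialic acid receptor (-0.46), which was not among the calls without LPS library 1 or IL1b library 2, when the members lower were 0. Ifnb1, the interferon induced through TRIF, had 0 counts in the IL1b libraries and 6, 0 and 12 counts with LPS at 18 h, and 12, 0 and 0 with IFNg alone, and was not called (adjusted p = 0.2).

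Genes of the IFNg response itself, to which every library here was exposed, showed 10 of 29 higher and 3 lower with LPS, with a median log2 difference of 0.12. Under the RPKM-implied totals the split was 7 and 6, and without the third LPS library 9 and 5. Leaving out LPS library 1 gave 8 and 1, leaving out IL1b library 1 gave 7 and 2, and leaving out IL1b library 2 or IL1b library 3 gave 6 and 2. Upp1, a uridine phosphorylase, was at 62.9, 62.1 and 48.2 CPM with IL1b and at 254, 230 and 150 CPM with LPS (1.87, SE 0.187, adjusted p = 1.82e-07). Cd38, an ectoenzyme that consumes NAD, was at 1.15, 2.43 and 2.72 CPM with IL1b and at 31.3, 30.5 and 21.4 CPM with LPS (3.75, SE 0.64, adjusted p = 0.000676). Gbp2b, a guanylate-binding protein whose reads can be shared with its close relatives, went the other way, at 1587, 1425 and 1413 CPM with IL1b and at 430, 498 and 744 CPM with LPS (-1.41, SE 0.153, adjusted p = 4.37e-07).

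The mRNA of MHC class II antigen presentation genes was lower with LPS in 4 of 11 tested and higher in 0, with a median log2 difference of -0.34. Ciita, the transcriptional master regulator of these genes, was at 598, 575 and 539 CPM with IL1b and at 333, 327 and 294 CPM with LPS (-0.84, SE 0.133, adjusted p = 3.93e-05). The class II beta chain H2-Eb1 was at 1030, 996 and 1096 CPM with IL1b and at 786, 731 and 582 CPM with LPS (-0.57, SE 0.133, adjusted p = 0.00304). Cd74, the invariant chain, differed by -0.35 (adjusted p = 0.027), a call that held only without IL1b library 1 when single libraries were left out (largest adjusted p = 0.109). H2-DMa differed by -0.36 (adjusted p = 0.0469), and its call held only without LPS library 3 when single libraries were left out. Leaving out LPS library 1, LPS library 2 or IL1b library 2 left 2 of the 4 genes. In the class I list 3 of 21 were higher and 1 lower, and the higher ones were the near-identical H2-Q4, H2-Q6 and H2-Q7, between which reads can be split; 0 of them were called without LPS library 1, and the count of higher members was 1 without IL1b library 1 or IL1b library 2. Pdia3, a chaperone of peptide loading, was the lower one (-0.46, SE 0.098, adjusted p = 0.00131).

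Costimulatory and checkpoint genes were higher with LPS in 7 of 20 tested and lower in 2, with a median log2 difference of 0.54. The split was 5 and 3 under the RPKM-implied totals, 6 and 2 without LPS library 3, 4 and 1 without IL1b library 1, 6 and 1 without LPS library 1, and 4 and 2 without LPS library 2. Among the 7, Tnfrsf9 had 1, 24 and 1 counts with LPS and 0 in every IL1b library, so it rests on LPS library 2. Its call was lost without LPS library 2, IL1b library 1 or IL1b library 2. Cd274, which encodes PD-L1, was at 387, 370 and 349 CPM with IL1b and at 849, 882 and 914 CPM with LPS (1.26, SE 0.129, adjusted p = 5.99e-08). Cd40, the receptor of T cell help, was at 72.3, 66.3 and 51.3 CPM with IL1b and at 160, 171 and 122 CPM with LPS (1.25, SE 0.164, adjusted p = 3.28e-06).

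The microbicidal and prostaglandin genes held some of the largest differences. Of 30 tested members 15 were higher and 1 lower with LPS, with a median log2 difference of 0.79. The members higher were 16 without the third LPS library, and 13 to 16 with single libraries left out. Nos2 (chromosome 11, 78920787 to 78960254, mm10), which makes nitric oxide from arginine, was at 19, 22.1 and 33.6 CPM with IFNg alone, at 129, 214.5 and 250 CPM with IL1b and at 3040, 3540 and 2694 CPM with LPS. The 3 groups were in that order without overlap, and the difference between LPS and IL1b was 3.97 (SE 0.232, adjusted p = 4.95e-10). Slc7a2, the transporter that supplies arginine, was at 5.15, 5.87 and 6.92 CPM with IL1b, as with IFNg alone (5.18 to 7.51 CPM), and at 68, 72.8 and 48.9 CPM with LPS (3.41, SE 0.268, adjusted p = 2.5e-08). Arg2, the mitochondrial arginase, was at 0.383, 0.511 and 0.466 CPM with IL1b and at 6.03, 6.37 and 6.06 CPM with LPS (adjusted p = 0.00086). Arg1, its cytosolic counterpart, was not called (0.64, SE 0.28, adjusted p = 0.158), and was called without LPS library 3 (adjusted p = 0.0402).

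Acod1, which makes itaconate from a TCA cycle intermediate, was at 638, 797 and 962 CPM with IL1b and at 5879, 5968 and 4417 CPM with LPS (2.76, SE 0.141, adjusted p = 1.09e-13). The prostaglandin synthases Ptgs2 and Ptges lie in 1 pathway. Ptgs2 was at 47.3, 52.1 and 73.8 CPM with IL1b and at 464, 536 and 406 CPM with LPS (3.03, SE 0.161, adjusted p = 3.04e-12). Ptges was at 0.767, 0.639 and 1.01 CPM with IL1b and at 15.3, 16.2 and 10 CPM with LPS (4.11, SE 0.739, adjusted p = 0.00107). The 1 lower member was the constitutive isoform Ptgs1 (-2.35, adjusted p = 0.00234), and Hpgd, which inactivates prostaglandins, was lower too, at 7.07, 6.39 and 3.96 CPM with IL1b and at 0.406, 0.33 and 0 CPM with LPS (-4.46, SE 0.525, adjusted p = 2.94e-06).

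Pattern and scavenger receptors were called in both directions, 12 of 30 higher and 7 lower with LPS, with a median log2 difference of 0.41. Without the third LPS library they were 10 and 8, and the median was 0.24 without IL1b library 2 and 0.18 in a fit of the 2 groups alone. C-type lectins of the gene cluster on chromosome 6 (mm10) parted. Clec4n (123229843 to 123247021), a receptor for fungal mannans, was at 3.56, 2.17 and 2.64 CPM with IL1b and at 172, 138 and 132 CPM with LPS (5.70, SE 0.47, adjusted p = 4.29e-07). Clec4e (123281789 to 123289870), the mycobacterial glycolipid receptor Mincle, was at 13.9, 12.2 and 14.2 CPM with IL1b and at 357, 367 and 272 CPM with LPS (4.63, SE 0.208, adjusted p = 3.77e-13). Clec4b1 (123049962 to 123071555), a lectin of the same cluster, was at 4.44, 7.22 and 6.45 CPM with IL1b and at 0.232, 0.33 and 0 CPM with LPS (-4.89, SE 0.833, adjusted p = 0.000113). How reads of near-identical copies were counted is unknown here, and reads can be split among these lectins or left out. Fpr2, a formyl peptide receptor, was at 9.2, 9.2 and 15.5 CPM with IL1b and at 94.8, 98.5 and 76.5 CPM with LPS (3.0, SE 0.272, adjusted p = 5.23e-08).

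Defence against oxidants was the list with the highest share of members higher with LPS, 19 of 27 with 0 lower, and a median log2 difference of 1.24. Without the third LPS library 21 were higher, and with single libraries left out 18 to 21 were. Hmox1, which degrades heme, was at 259, 321 and 274 CPM with IL1b and at 2855, 2506 and 1657 CPM with LPS (3.04, SE 0.151, adjusted p = 7.79e-14). Prdx1, a peroxidase of the peroxiredoxin family, was at 548, 563 and 555 CPM with IL1b and at 4276, 4219 and 3450 CPM with LPS (2.84, SE 0.115, adjusted p = 9.95e-16). Gclm, the modifier subunit of glutathione synthesis, was at 44.5, 43.6 and 57.8 CPM with IL1b and at 341, 331 and 224 CPM with LPS (2.62, SE 0.225, adjusted p = 5.89e-08). In all these genes the third LPS library was the lowest of the LPS libraries and still above every IL1b library. Slc7a11, the cystine importer that feeds glutathione synthesis, had 2 counts over the IL1b libraries and 1586 over the LPS libraries, a ratio of 745 with a 95% counting interval of 206 to 6160 that covers counting error only (adjusted p = 5e-11). Both IL1b counts were in IL1b library 1, and without it the IL1b libraries were at 0 and the fitted log2 difference, which then depends on a prior count, was 11.93 in place of 9.26.

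Glycolysis and hypoxia response genes were higher with LPS in 18 of 27 tested and lower in 0, with a median log2 difference of 0.76. The members higher were 19 without the third LPS library, and 13 to 19 with single libraries left out. Slc2a1, the glucose transporter Glut1, was at 76, 99 and 110 CPM with IL1b and at 291, 292 and 213 CPM with LPS (1.48, SE 0.141, adjusted p = 1.93e-08). The lactate exporter Slc16a3 was at 119, 136 and 106 CPM with IL1b and at 612, 526 and 359 CPM with LPS (2.05, SE 0.172, adjusted p = 7.93e-09). P4ha2, a prolyl hydroxylase of collagen, differed by 2.37 (SE 0.427, adjusted p = 0.00109). In the TCA cycle list 1 of 24 was higher and 4 lower, with a median of -0.04 (0.01 without LPS library 1): pyruvate carboxylase Pcx was higher (1.22, SE 0.281, adjusted p = 0.00283), while Idh2 (-0.87, SE 0.194, adjusted p = 0.00218), Fh1 (-0.77, SE 0.127, adjusted p = 7.95e-05) and Idh3g (-0.56, SE 0.124, adjusted p = 0.00185), enzymes of the cycle, were lower. None of 37 oxidative phosphorylation genes was called by edgeR, 0 in either direction, with a median of -0.10. At an unadjusted p under 0.05 there were 4, DESeq2 called 1 lower and the RPKM-implied totals gave 2 lower. Leaving out LPS library 1 gave 2 lower and LPS library 3 gave 1 lower.

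Lipid genes differed in part. In the list of cholesterol efflux and lipid handling 6 of 22 were higher and 1 lower with LPS, with a median log2 difference of 0.17, a split that was 4 and 2 under the RPKM-implied totals or without IL1b library 1, and 6 and 2 with no filter on low counts or in a fit of the 2 groups alone. Acsl1, which activates fatty acids, was at 264, 306 and 328 CPM with IL1b and at 1193, 1434 and 1271 CPM with LPS (2.12, SE 0.123, adjusted p = 1.69e-12). Cd36, a fatty acid and oxidised lipid receptor, was at 785, 819 and 1012 CPM with IL1b and at 1708, 1817 and 1822 CPM with LPS (1.03, SE 0.106, adjusted p = 5.99e-08).

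**Figure D4:**
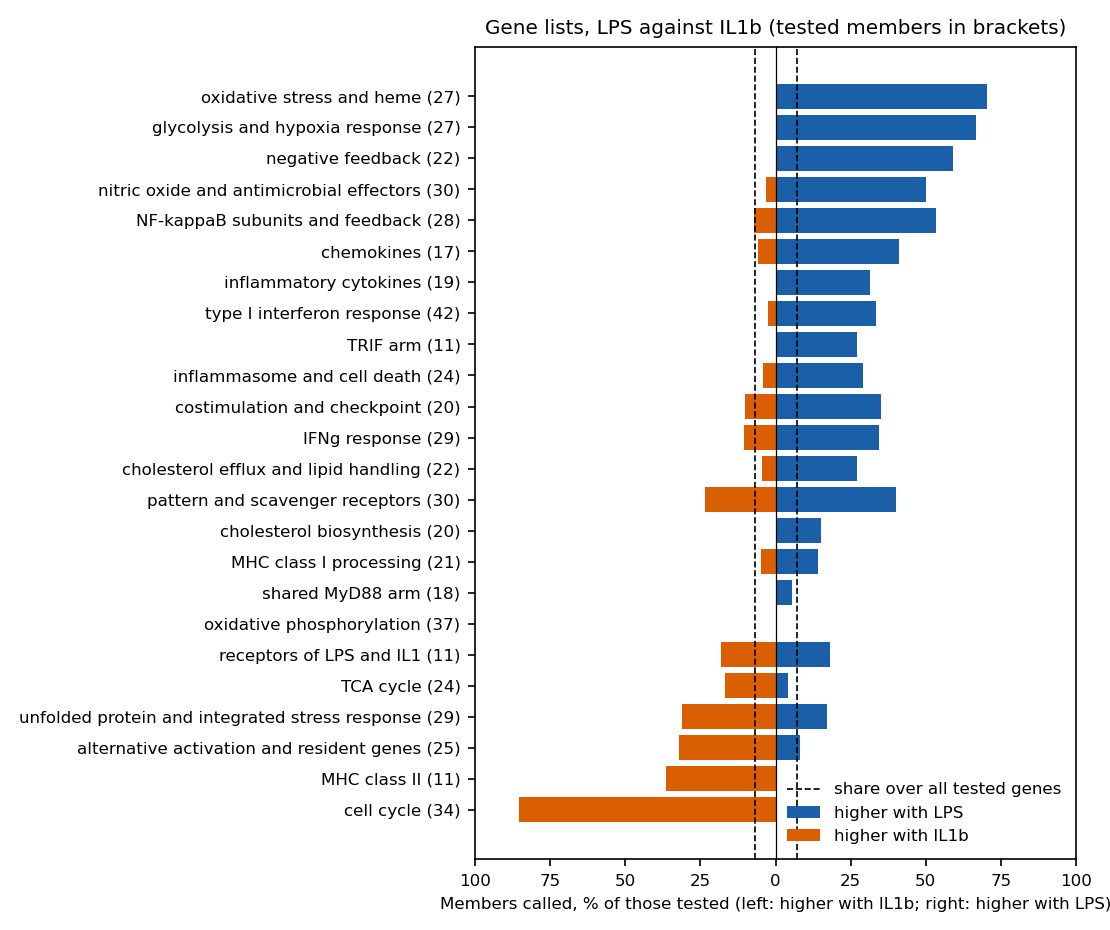
Share of tested members of 24 gene lists that were called higher with LPS (blue, right) or higher with IL1b (orange, left), in percent of the members tested, whose number stands in brackets; dashed lines mark the share over all tested genes (7.13% and 6.95%). The oxidative stress list (19 of 27 higher) stands at the top and the cell cycle list (29 of 34 lower) at the bottom.

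Cell cycle genes were lower with LPS than with IL1b in 29 of 34 tested and higher in 0, with a median log2 difference of -1.86, and 29 were lower without the third LPS library. Mki67, which marks cycling cells, was at 284, 271 and 226 CPM with IL1b and at 54.4, 73.5 and 58.8 CPM with LPS (-2.06, SE 0.214, adjusted p = 8.41e-07). The mitotic cyclin Ccnb2 was at 62.9, 48.9 and 28.8 CPM with IL1b and at 7.13, 7.14 and 5.78 CPM with LPS (-2.81, SE 0.35, adjusted p = 1.33e-05). Ccna2, the cyclin of S phase and mitotic entry, was at 65.3, 72.6 and 58.3 CPM with IL1b, overlapping the 55 to 75.2 CPM of IFNg alone, and at 10, 12.9 and 16.5 CPM with LPS (-2.32, SE 0.299, adjusted p = 1.04e-05). The kinase Plk1 differed by -2.31 (SE 0.267, adjusted p = 5e-07) and Ube2c, which works with the anaphase-promoting complex, by -2.44 (SE 0.446, adjusted p = 0.000603). In these bulk libraries fewer cells of a kind and less RNA per cell cannot be told apart.

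Markers of other cell types differed in both directions and are given here as measured values. Of 11 tested neutrophil and granulocyte precursor genes 6 were lower with LPS and 0 higher by edgeR (8 and 1 by DESeq2), and the summed level of the list was 87.3, 87 and 102.5 CPM with IL1b and 28.9, 37.1 and 44.4 CPM with LPS. Mpo, the granule enzyme myeloperoxidase, was at 5.86, 5.87 and 3.89 CPM with IL1b and at 0, 0.11 and 0.627 CPM with LPS (-4.46, SE 0.911, adjusted p = 0.00146). Elane, neutrophil elastase, had 34, 20 and 26 counts with IL1b and 0 in every LPS library, at least 28.4-fold lower with LPS against a floor of 3 counts over the group. The B cell list summed to 451 to 477 CPM with IL1b and 63.3 to 110 CPM with LPS, nearly all of it Ighm, while Ms4a1 and Pax5 were at 0 counts. Of 4 tested endothelial genes 2 were higher (Kdr and Vwf) and 0 lower, with sums of 62.3, 81.4 and 87 CPM with IL1b and 104.5, 119.8 and 125.9 CPM with LPS; 0 were called without IL1b library 1 and 1 without LPS library 3. Dendritic cell genes had 1 of 9 higher (Ccr7, not called when any 1 of the 6 libraries was left out) and 1 lower (Clec9a), with sums of 75 to 81.8 CPM with IL1b and 42.2 to 47.8 CPM with LPS. No tested gene of the T cell, mast cell, fibroblast or erythroid lists was called by edgeR or DESeq2 (0 at an unadjusted p under 0.05), and the fibroblast list had a median log2 difference of 0.72 over 5 genes. The part of these cells in the cell cycle result was not tested.

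Genes of alternatively activated and resident macrophages were lower with LPS in 8 of 25 tested and higher in 2, with a median log2 difference of -0.31; without LPS library 3 these were 7 and 4. Mrc1, the mannose receptor, was at 70.4, 46.4 and 55 CPM with IL1b and at 7.94, 11.6 and 15 CPM with LPS (-2.32, SE 0.303, adjusted p = 3.4e-05). The galactose lectin Clec10a was at 26.1, 17.2 and 27.1 CPM with IL1b and at 3.3, 4.83 and 2.79 CPM with LPS (-2.68, SE 0.281, adjusted p = 8.08e-08). Cd163, the haptoglobin-hemoglobin receptor, was at 4.55, 5.56 and 3.26 CPM with IL1b and at 0.695, 0.549 and 0 CPM with LPS (-3.35, SE 0.565, adjusted p = 0.000143).

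The unfolded protein and integrated stress response list parted, 5 of 29 higher and 9 lower with LPS, with a median log2 difference of -0.20; without LPS library 1 these were 5 and 5. Herpud1, of endoplasmic reticulum degradation, was at 56, 52.5 and 48 CPM with IL1b and at 22.9, 22.3 and 31.4 CPM with LPS (-1.03, SE 0.18, adjusted p = 0.000143). Shmt2, of mitochondrial one-carbon metabolism, differed by -1.13 (SE 0.222, adjusted p = 0.000538). Trib3, a pseudokinase of the Atf4 programme, was higher, at 8.98, 7.85 and 7.77 CPM with IL1b and at 19.6, 16.4 and 16.5 CPM with LPS (1.09, SE 0.26, adjusted p = 0.00397). In the inflammasome and cell death list 7 of 24 were higher and 1 lower, with a median of 0.28, and the lower count was 0 without LPS library 2 or 3 or IL1b library 1 or 2. They included Mefv, the pyrin sensor (1.86, SE 0.441, adjusted p = 0.00628), Ninj1, which mediates plasma membrane rupture (1.57, SE 0.26, adjusted p = 0.00026), and the death receptor Fas (1.16, SE 0.199, adjusted p = 0.000112).

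The 35 genes called in IL1b against IFNg alone give the size of the same genes' response to LPS, measured against the same IFNg libraries. Over the 31 genes that rose with IL1b, the median log2 difference from IFNg alone was 0.86 with IL1b and 3.06 with LPS, beside -0.001 and -0.004 over all tested genes. The 31 were chosen by their call with IL1b, so that choice can raise the 0.86. Low values in the shared IFNg libraries can raise both medians. The direct contrast was called higher with LPS in 28 of the 31, lower in 0 and not called in 3. Over all tested genes 7.13% were called higher and 6.95% lower in that contrast. Clec4d, a lectin that pairs with Mincle, was at 17.8, 13.4 and 14.8 CPM with IFNg alone, at 48.8, 58.3 and 65.4 CPM with IL1b and at 459, 434 and 483 CPM with LPS. Its difference from IFNg alone was 1.90 with IL1b (SE 0.139, adjusted p = 2.91e-09) and 4.90 with LPS, and the difference between the ligands was 3.0 (SE 0.138, adjusted p = 1.53e-14). Gpr84, a receptor for medium-chain fatty acids, was at 6.9, 8.49 and 7.77 CPM with IL1b and at 41, 43.1 and 27.7 CPM with LPS, against 0.82 to 2.59 CPM with IFNg alone. Procr, the endothelial protein C receptor, was at 18.9, 21.7 and 21.2 CPM with IL1b and at 335, 309 and 182 CPM with LPS, against 7.3 to 9.57 CPM with IFNg alone.

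Against IFNg alone the log2 difference with IL1b and with LPS was 2.99 and 6.96 for Nos2, 1.49 and 4.25 for Acod1, 1.30 and 4.32 for Ptgs2, 1.58 and 6.21 for Clec4e, 0.92 and 3.76 for Prdx1, and 0.66 and 1.69 for Cd36. Il23r, a subunit of the IL23 receptor, was at 0 counts with IFNg alone and was at least 9.77-fold higher with IL1b and at least 102-fold higher with LPS against a floor of 3 counts over the IFNg group.

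Among the genes called against IFNg alone with both ligands, 3 were not called between them. Ms4a7, a membrane protein of macrophages, was at 220, 193 and 248 CPM with IL1b and at 240, 252 and 307 CPM with LPS, overlapping (log2 difference 0.27, SE 0.133, adjusted p = 0.2), against 113 to 145 CPM with IFNg alone. Lpl, lipoprotein lipase, was at 3455, 3801 and 3854 CPM with IL1b and at 3255, 3761 and 3313 CPM with LPS (-0.11, SE 0.103, adjusted p = 0.621), against 2525 to 2794 CPM with IFNg alone. Asns, asparagine synthetase, was at 47.2, 57.7 and 50 CPM with IL1b and at 49.1, 68.1 and 74.2 CPM with LPS (0.30, SE 0.249, adjusted p = 0.528), against 19.5 to 26.8 CPM with IFNg alone. A p that misses the threshold does not show that the ligands act alike on them. Their calls against IFNg alone depended on single libraries: with IL1b, Asns lost its call without any 1 of the 6 libraries, Lpl without IFNg library 1, IFNg library 2, IL1b library 2 or IL1b library 3, and Ms4a7 without IFNg library 2 or IL1b library 3; with LPS, Lpl lost its call without LPS library 2.

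**Figure D5:**
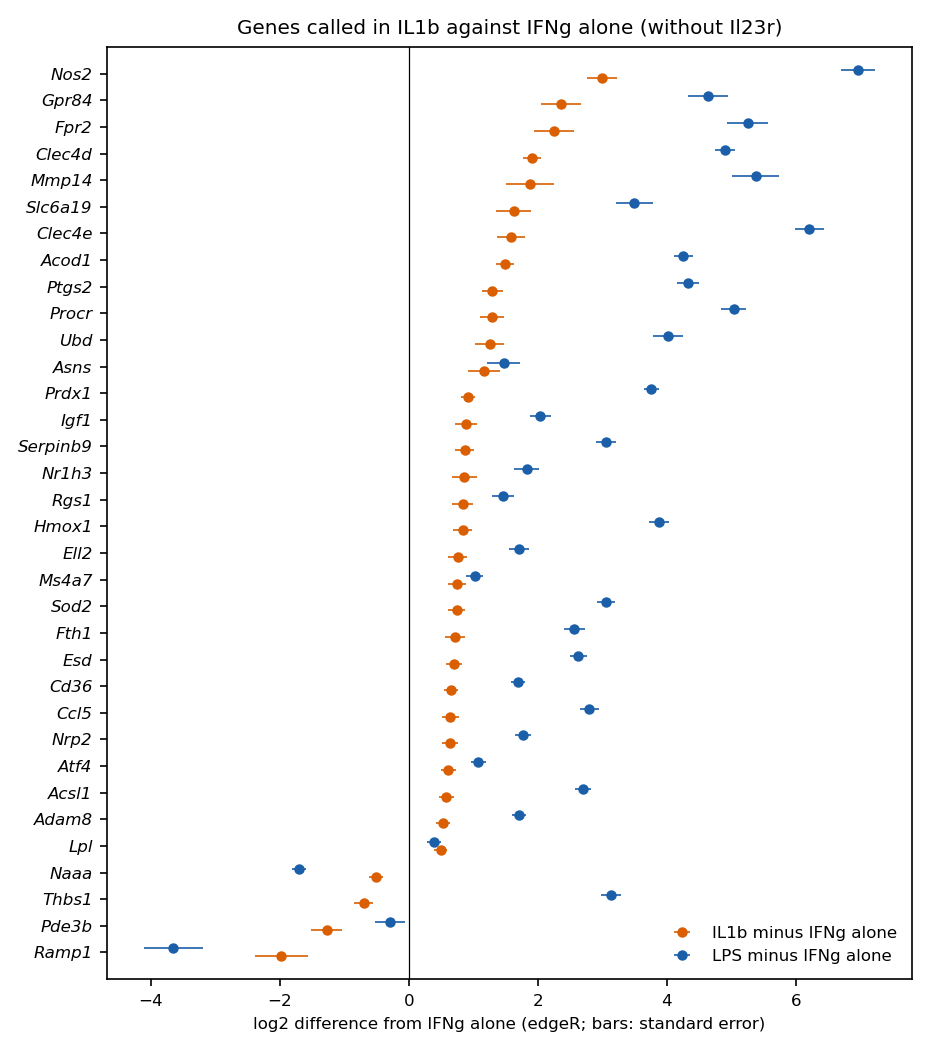
Log2 difference from IFNg alone (x axis, edgeR, bars are standard errors) with IL1b (orange) and with LPS (blue) for 34 of the 35 genes called in IL1b against IFNg alone; Il23r, at 0 counts with IFNg alone, is left out. Both series share the IFNg libraries; Nos2 lies at 2.99 and 6.96, Lpl at 0.50 and 0.39, and Thbs1 at -0.70 and 3.13.

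Of the 4 genes that fell with IL1b against IFNg alone, 2 also fell with LPS, 1 rose and 1 was not called. Genes called lower with IL1b numbered 1 without IFNg library 1 or 3 or IL1b library 2 or 3. They numbered 2 without IFNg library 2 and 3 without IL1b library 1. Which of the 4 kept the call is not given here. Thbs1, the matrix protein thrombospondin 1 (chromosome 2, 118111876 to 118127133, mm10), was at 71.3, 89.5 and 83.5 CPM with IFNg alone, at 47.9, 55 and 47.3 CPM with IL1b and at 743, 643 and 754 CPM with LPS. The IL1b libraries were below and the LPS libraries above every IFNg library (log2 difference from IFNg alone -0.70 with IL1b, adjusted p = 0.0187, and 3.13 with LPS, adjusted p = 1.17e-14). Pde3b, a phosphodiesterase, was at 17.4, 14.2 and 16.1 CPM with IFNg alone, at 7.01, 4.66 and 8.16 CPM with IL1b and at 15.2, 9.56 and 14.5 CPM with LPS (between the ligands 0.99, SE 0.246, adjusted p = 0.00587). Ramp1, a partner of the CGRP receptor, fell with both ligands against IFNg alone, by 1.98 with IL1b and by 3.65 with LPS on the log2 scale. Naaa, a lysosomal amidase, likewise fell by 0.51 with IL1b and by 1.70 with LPS. Both were called lower with LPS than with IL1b (log2 differences -1.67 for Ramp1 and -1.18 for Naaa).

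Among other genes with the largest differences higher with LPS were Wnk2, a kinase that regulates ion transport (40.5, 17.2 and 14.2 CPM with LPS against 0.0548, 0.192 and 0 CPM with IL1b), Slc4a11, a membrane transporter (41.1, 32.6 and 32.1 against 1.64, 2.11 and 2.18 CPM), and Tarm1, an activating receptor of myeloid cells (47.9, 47.3 and 24.4 against 1.48, 2.87 and 4.2 CPM). Sgms2, a sphingomyelin synthase, was at 9.44, 16.2 and 18.5 CPM with LPS against 0.767, 1.41 and 0.0777 CPM with IL1b (adjusted p = 0.000321). Pdpn, podoplanin, was at 32.2, 36.6 and 63.1 CPM with LPS against 2.25, 4.41 and 2.72 CPM with IL1b (3.81, SE 0.408, adjusted p = 2e-06). Saa3, an acute phase protein, was at 120, 96.2 and 99.9 CPM with LPS against 28.8, 16 and 13.7 CPM with IL1b (2.43, SE 0.455, adjusted p = 0.00154). Lower with LPS, besides those above, were the receptor Cd300lg (0.174, 0.714 and 0.348 against 6.08, 8.81 and 9.25 CPM), the organic anion transporter Slco2b1 (0.174, 0 and 1.19 against 6.79, 4.85 and 6.22 CPM) and Aspm, of the mitotic spindle (4.17, 3.24 and 5.99 against 45.6, 33.1 and 29.8 CPM). In each of these genes the LPS and IL1b libraries did not overlap. For all but Saa3, which was in the fixed set, that was a condition for being named and is no added support.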

How the data were processed

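Per the labels' protocols, the input was 100 ng of RNA, a stranded poly(A) kit was used and sequencing gave single-end 50-base reads. Reads were aligned with GSNAP to mm10, per the submitters' processing notes, while no source used here gives the counter, annotation or strand setting. Reads of overlapping genes and of close paralogs can therefore be mixed or left out. Ube2n had 0 counts with IFNg alone, 6 with IL1b and 0 with LPS. Gapdh, Pgam1 and Cycs did not pass the filter on low counts. The reason was not tested. The files deposited by the authors give a read count and an RPKM value per gene for 22598 genes, of which 22457 were matched to a symbol in GENCODE M21. All 18 libraries in 6 groups were fitted with edgeR 4.0.16 (R 4.3.3, TMM, filterByExpr, glmQLFit with robust estimation and glmQLFTest), with a mean per group and no replicate block, and p-values were adjusted by Benjamini-Hochberg over 11563 genes. CPM was computed from the counts with TMM factors. The deposited RPKM values were used for levels per length and for library totals of 22728833 to 34886827 reads in the 6 libraries. The fit was tested on simulated data.

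Alternatives were DESeq2 1.42.0 (size factors and Wald test), RPKM-implied totals, no filter, a stricter filter, only the groups compared, the replicate number as a block and each library left out. The members and lists were chosen with earlier results of these data known. Genes named were the 15 highest and 10 lowest called genes with a mean of at least 5 CPM in either group and no overlap, called members of the receptor, Myd88 and TRIF lists, up to 4 called members of each other list, a fixed set of inflammatory genes, the 10 genes with the smallest p in IL1b against IFNg and those called in both additions but not between them. Genes outside that rule, such as sole members of a small count, were chosen after their values were seen. Results for a few list members are not reported here.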

Additional observations from a re-analysis of the deposited data

Results flagged for a closer look

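Thbs1 was called in opposite directions with the 2 ligands against the same IFNg libraries. The difference between the ligands was 3.83 on the log2 scale (SE 0.155, adjusted p = 9.95e-16 by edgeR). All 3 LPS libraries were above and all 3 IL1b libraries below every IFNg library. The opposite calls and a called difference between the ligands were conditions for this flag and are no added support. No other gene was called in opposite directions with both ligands. Whether the Thbs1 call with IL1b (adjusted p = 0.0187 by edgeR) holds with single libraries left out is not given here. Groups of 3 libraries were too small for a test of single outlying libraries.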

How the results depend on the processing

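Genes called in LPS against IL1b numbered 1628 and ran from 1191 to 1599 with a library left out; those in LPS against IFNg numbered 2348 and ran from 1860 to 2198. Every other setting, scaling and filters included, stayed within 1.5 times of these counts. With the replicate block 1827, 2515 and 48 genes were called in LPS against IL1b, LPS against IFNg and IL1b against IFNg. Under the replicate block the lipid handling list went from 6 higher and 1 lower to 7 and 4, and the pattern and scavenger receptors from 12 and 7 to 12 and 10, with a median of 0.25 in place of 0.41. Same-numbered LPS and IL1b libraries correlated at 0.061 to 0.236 in their deviations, and differently numbered ones at -0.13 to 0.047. The labels do not say what the numbers stand for, so the main fit has no block. Whether same-numbered libraries share a source was not tested. The 35 genes of IL1b against IFNg became 84 with DESeq2 and 68 with only the groups compared, and ran from 15 to 35 with a library left out; the cause was not tested. Of 110 named genes called between LPS and IL1b, 94 kept the call with each of 6 libraries left out. The 16 that lost it at least once were Depdc1b, Il1rap, Irf7, Ccl2, Ido1, H2-DMa, Cd74, H2-Q7, H2-Q6, H2-Q4, Tnfrsf9, Dusp5, Dusp4, Ankrd37, Msmo1 and Sdf2l1. No called log2 difference of a named gene changed sign under the settings run. Depth limits genes such as Il1r1, Il6 and Ifnb1, which had at most 51 counts in a library.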
